A study of Mus musculus with 3 samples.

Results

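Erg28 and 7 further genes of sterol synthesis were followed through 3 RNA pull-down libraries of mouse embryonic stem cells. The members were taken by gene symbol. They were 0610007P14Rik, which is the symbol the tables use for Erg28, and Hmgcs1, Idi1, Fdft1, Sqle, Cyp51, Nsdhl and Insig1. All 8 of 8 symbols were listed in all 3 libraries, out of 26587 gene symbols in the whole series, and all 8 had at least 10 counts in each. The counts of these 8 genes came to 3147 in the Actb control library, 5170 in the Malat1 library and 5910 in the Tfrc library, which were 302, 513 and 406 per 1000000 counts of the library.

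RIA-seq recovers RNAs that stay attached to one chosen RNA when cells are cross-linked. E14 cells, a feeder-free embryonic stem cell line of strain 129/Ola grown with LIF, were fixed with glutaraldehyde, lysed and sonicated, and antisense oligonucleotides with streptavidin beads were used to draw out one target RNA and what was held to it. The target was Actb, the β-actin mRNA, in Actb RIA-seq (called the control below), Malat1, a long noncoding RNA of nuclear speckles, in the second library (the Malat1 library), and Tfrc, the transferrin receptor mRNA, in the last (the Tfrc library). All 3 libraries shared the line, the fixation, the DNase treatment of the eluted RNA and the amplification, and no library of input RNA or of untargeted beads was analysed here. Each condition had 1 library of 1 cell line, so no spread between replicates exists, no test between conditions was made, and a difference between libraries cannot be told apart from a difference between conditions.

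Cells make cholesterol from acetyl-CoA by way of mevalonate, isoprenoid units, squalene and lanosterol, mostly with enzymes of the endoplasmic reticulum. When sterols are scarce, the transcription factor SREBP2 is carried from the endoplasmic reticulum to the Golgi, is cut free and switches on nearly every gene of the route together with the receptor that takes up LDL. When sterols are plentiful, INSIG proteins hold SREBP and its escort SCAP back. ERG28 is a membrane protein that tethers the enzymes which strip methyl groups from sterol precursors, among them NSDHL.

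On summed counts as a share of the library total, 6 of the 8 genes stood below the median gene in the Malat1 library over the control and 7 of 8 in the Tfrc library over the control, while on Ensembl-ID counts alone it was 3 of 8 and 5 of 8. Hmgcs1, which had Ensembl-ID counts only, was below the median gene on summed counts and above it on Ensembl-ID counts in both. Cyp51 had the highest fold in both. Idi1 was the one member with a smaller share in the Malat1 library than in the control, at 0.753-fold. Erg28 stood between Idi1 and Cyp51 on summed counts, at 1.63-fold, but its 2 kinds of count, explained below, gave 1.20 and 16.9. Under size factors, which centre the typical gene near 1, Cyp51 alone of the members stayed above the control in each comparison with it.

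The total count was 10405209 in the control, 10078439 in the Malat1 library and 14553941 in the Tfrc library, and 3 counts, the smallest share taken as detectable, were 0.206 to 0.298 per 1000000. The share of Malat1 was 5.81-fold higher in the Malat1 library than in the control and 3.84-fold higher in the Tfrc library, and that of Tfrc was 2.69-fold higher in the Tfrc library and 2.32-fold higher in the Malat1 library. Lars2, a mitochondrial leucyl-tRNA synthetase gene, took 32.0% of the control library against 17.0% and 22.2% of the Malat1 and Tfrc libraries. Among genes that reached 10 counts in each of the libraries compared, the median stood at 1.82 (log2 0.86) in the Malat1 library over the control, at 1.56 (log2 0.64) in the Tfrc library over the control and at 1.15 (log2 0.20) in the Malat1 library over the Tfrc library. The folds of the members are therefore set beside that median, and on scalings that centre it near 1 most members lie below 1 in both comparisons with the control, though not between the target libraries. The 7 markers of embryonic stem cells held 126 to 1105 counts per 1000000 in each library, while the 10 markers of endoderm, mesoderm, neuroectoderm and fibroblasts summed to 26.0 to 33.7, with Thy1 the highest at 18.9 and Sox1 at 0 throughout.

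Each gene could carry 2 counts in a library, an Ensembl-ID count, listed under its identifier, and a Genome count, listed under a reference of that name. What the Genome reference holds is not given in the sources used here. Genome counts took 5.25% of the control, 19.0% of the Malat1 library and 15.1% of the Tfrc library. The median member had 6.61%, 14.5% and 13.9% of its counts as Genome counts in the 3 libraries in that order, and the median gene with at least 100 counts had 9.27%, 24.7% and 21.8%. Both kinds are given apart for each member below, and then summed. A fold is the ratio of a gene's shares of the library total, and its interval, at the 95% level on the log scale, covers counting error only, since the reads were PCR amplified and carried no molecular identifiers. For a fold with a count under 10, the exact binomial interval is given and named as exact. Intervals of a ratio between kinds of count or between genes are on the log scale throughout, and are rough where a count was under 10. A fold of at least 2 was called. Gene positions are those of build NCBIM37.

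**Figure D1:**
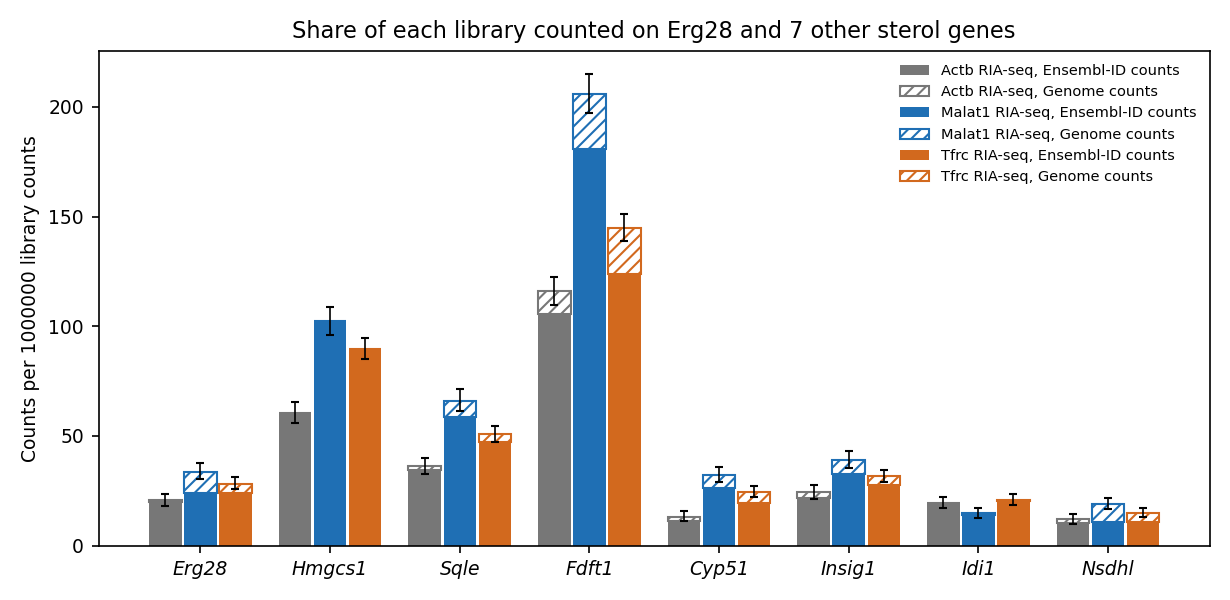
Counts per 1000000 library counts (y axis) of Erg28 and the 7 other sterol genes in the control, Malat1 and Tfrc libraries, with Ensembl-ID counts as solid and Genome counts as hatched bars; error bars are 95% Wilson counting intervals of the sum, with 1 library per condition. Fdft1 stood highest in each library at 116, 206 and 145, and Idi1 was the member with a smaller share in the Malat1 library than in the control, while the bars of the other members were taller there on library totals, and under size factors only that of Cyp51 was.

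Hmgcs1 encodes the cytosolic synthase that makes HMG-CoA, the precursor of mevalonate. It had 631 counts in the control, 1031 in the Malat1 library and 1306 in the Tfrc library, or 60.6, 102 and 89.7 per 1000000. The control was lowest. The fold was 1.69 (1.53 to 1.86) in the Malat1 library and 1.48 (1.35 to 1.63) in the Tfrc library over the control. This was 0.927 and 0.949 of the median gene on summed counts. Hmgcs1 carried Ensembl-ID counts only. Against the median gene on that kind of count it was 1.19 and 1.17, with 64.4% and 66.1% of genes lower.

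Hmgcs1 was the one member listed under 2 identifiers. ENSMUSG00000079301 on contig NT_166323 held 327, 516 and 659 counts, and ENSMUSG00000079828 on contig NT_110857 held 304, 515 and 647. The contigs are near copies: 134341 bp, 71.9% of the first, aligned to the second at 99% identity or more, with 1 block of 41745 bp. The counts on the 2 rows may therefore not be separate measurements, and either row alone gave 1.63 and 1.75 in the Malat1 library over the control. Neither identifier lies in the annotation used here. No gene on any contig carried a Genome count in the tables, against 333 Ensembl-ID rows on contigs, so the absence of Genome counts for Hmgcs1 says nothing about this gene.

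Idi1 (ENSMUSG00000058258, chr13:8884852-8891641, plus strand) encodes the isomerase that interconverts the isoprenoid building blocks isopentenyl and dimethylallyl diphosphate. The Ensembl-ID counts were 202 in the control, 140 in the Malat1 library and 294 in the Tfrc library, and the Genome counts were 1, 8 and 11. The summed share was 19.5 per 1000000 in the control, 14.7 in the Malat1 library and 21.0 in the Tfrc library, so the Malat1 library was the low one. The fold was 0.753 (0.609 to 0.930) in the Malat1 library over the control, below that of all but 4.36% of genes and 0.414 of the median gene. Idi1 also stood below the Tfrc library at 0.701 (0.576 to 0.853), while in the Tfrc library over the control it was 1.07 (0.899 to 1.28), an interval that includes 1. In the Malat1 library over the control Idi1 was below 1 on summed and on Ensembl-ID counts under every scaling tried, with 0.400 the lowest value, and above 1 on Genome counts, where the control held 1 count (8.26, exact 1.11 to 366).

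The Idi1 mRNA also has 6 spliced copies elsewhere in the genome with at least 80% identity over at least 500 bp. The closest is a copy on chromosome 2, 99.3% identical over 2494 bp and annotated as the pseudogene Gm13502, which held 88, 65 and 119 Ensembl-ID counts. Reads of Idi1 and of these copies could have been divided between them in the counting, so the level of Idi1 is uncertain. With the counts of the annotated copy added, the folds were 0.756, 1.04 and 0.725 in the 3 comparisons, in the order Malat1 over Actb, Tfrc over Actb and Malat1 over Tfrc.

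Fdft1 (ENSMUSG00000021273, chr14:63763990-63796630, minus strand) encodes squalene synthase, the first enzyme committed to sterols. It had 1098, 1824 and 1802 Ensembl-ID counts and 108, 250 and 307 Genome counts in the control, Malat1 and Tfrc libraries. Its summed share was 116, 206 and 145 per 1000000, highest in the Malat1 library. Per kilobase of merged exon its Ensembl-ID level was 36.9, 63.3 and 43.3 counts per 1000000, the highest of the 7 members with an annotated length. The fold was 1.78 (1.65 to 1.91) in the Malat1 library over the control, 0.976 of the median gene, and 1.25 (1.16 to 1.34) in the Tfrc library over the control, 0.802 of the median gene. Between the 2 target libraries Fdft1 had the highest fold of the members, 1.42 (1.34 to 1.51). A copy 97.4% identical over 1618 bp lies on chromosome 14 and is annotated as Gm6781, with 5, 18 and 13 Ensembl-ID counts.

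Sqle (ENSMUSG00000022351, chr15:59146632-59162747, plus strand) encodes squalene epoxidase, a controlled step of the route. It had 360, 592 and 685 Ensembl-ID counts and 16, 73 and 55 Genome counts in the same order. The summed share was 36.1, 66.0 and 50.8 per 1000000, again highest in the Malat1 library. The fold was 1.83 (1.61 to 2.07) in the Malat1 library and 1.41 (1.24 to 1.59) in the Tfrc library over the control, 1.00 and 0.903 of the median gene.

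Cyp51 (ENSMUSG00000001467, chr5:4081145-4104746, minus strand) encodes the cytochrome P450 that takes a methyl group off lanosterol. It had 117, 265 and 285 Ensembl-ID counts and 21, 60 and 72 Genome counts, and a summed share of 13.3, 32.2 and 24.5 per 1000000. The Malat1 library was highest and the control lowest. Cyp51 had the largest fold of the members in both comparisons with the control, 2.43 (1.99 to 2.97) in the Malat1 library and 1.85 (1.52 to 2.25) in the Tfrc library. These values were 1.34 and 1.19 of the median gene, and 73.1% and 65.4% of genes were lower.

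Nsdhl (ENSMUSG00000031349, chrX:70163896-70203853, plus strand) encodes a dehydrogenase of the demethylating complex that ERG28 tethers. The Ensembl-ID counts were 108, 109 and 155, and the Genome counts were 17, 83 and 65. Its Ensembl-ID share of the library was nearly level, with folds of 1.04 (0.799 to 1.36) in the Malat1 library and 1.03 (0.803 to 1.31) in the Tfrc library over the control, both intervals including 1. The Genome counts were 13.6%, 43.2% and 29.5% of its counts, the largest share of any member in each target library. The summed fold of 1.59 (1.27 to 1.99) in the Malat1 library over the control thus rested on the Genome counts.

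Insig1 (ENSMUSG00000045294, chr5:28397952-28405201, plus strand) encodes the anchor that keeps SCAP and SREBP in the endoplasmic reticulum and is itself an SREBP target. It had 227, 328 and 400 Ensembl-ID counts and 26, 67 and 61 Genome counts, or 24.3, 39.2 and 31.7 per 1000000 when summed. The fold was 1.61 (1.38 to 1.89) in the Malat1 library and 1.30 (1.12 to 1.52) in the Tfrc library over the control, 0.886 and 0.836 of the median gene. A copy 97.9% identical over 2040 bp lies on chromosome 3 in sequence with no annotated exon, and reads could have been shared with it. No such copy was found for Erg28, Sqle, Cyp51 or Nsdhl.

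The 2 counts of Erg28 parted. The Ensembl-ID counts were 209 in the control, 242 in the Malat1 library and 352 in the Tfrc library, or 20.1, 24.0 and 24.2 per 1000000. The Genome counts were 6, 98 and 60, or 0.577, 9.72 and 4.12 per 1000000. The Ensembl-ID shares thus lay close together in the 3 libraries, while the Genome share was low in the control, highest in the Malat1 library and between them in the Tfrc library.

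On Ensembl-ID counts the fold of Erg28 was 1.20 (0.993 to 1.44) in the Malat1 library over the control, below the median gene at 1.41, and 1.20 (1.01 to 1.43) in the Tfrc library over the control, below the median gene at 1.26. On Genome counts it was 16.9 (exact 7.48 to 47.1) in the Malat1 library over the control, where the median gene stood at 3.60. Of 10557 genes that reached 5 Genome counts in each library, 9 were at least as high, Erg28 among them, and 418 reached the lower end of its interval. All 9 were among the 3956 genes with at most 15 Genome counts in the control, whose median was 3.39 and 99th percentile 11.8. In the Tfrc library over the control the Genome fold was 7.15 (exact 3.10 to 20.3) against a median gene of 2.86, 161 of 10654 genes were at least as high, and 4272 reached the lower end of its interval. Both Genome folds rest on the same 6 control counts.

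Genome counts were compared between the target libraries without the control. Erg28 had a Genome fold of 2.36 (1.71 to 3.25) in the Malat1 library over the Tfrc library, against a median gene of 1.28. 95.1% of genes were lower. On Ensembl-ID counts the same fold was 0.993 (0.843 to 1.17).

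The ratio of Genome to Ensembl-ID counts of one gene does not depend on the library total. For Erg28 it was 14.1 times higher (6.06 to 32.8) in the Malat1 library than in the control, and 16 of 9037 genes were at least as high. The median gene was 2.52 times higher. The ratio in the Tfrc library was 5.94 times (2.52 to 13.98) that of the control, with a median gene of 2.18. Both intervals rest on the 6 control Genome counts and are on the log scale. The change in the Malat1 library was 4.84 (2.69 to 8.69) for Nsdhl, 2.77 (1.59 to 4.84) for Sqle, 1.78 for Insig1, 1.39 for Fdft1 and 1.26 (0.733 to 2.17) for Cyp51. In the Tfrc library these 5 members lay between 1.33 for Insig1 and 2.66 for Nsdhl. Idi1, with 1 control Genome count, was at 11.5 (1.43 to 93.3) in the Malat1 library and at 7.56 (0.968 to 59.0) in the Tfrc library, the latter above Erg28. Erg28 stood above the 5 members with at least 10 control Genome counts in both target libraries. Its interval overlapped that of Nsdhl in both and also that of Sqle in the Tfrc library, and it cannot be ranked against Idi1 at this depth.

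Set directly against each member, the Genome fold of Erg28 in the Malat1 library over the control was 7.06 times that of Fdft1 (3.00 to 16.6), 6.34 times that of Insig1 (2.47 to 16.2), 5.72 times that of Cyp51 (2.18 to 15.0), 3.58 times that of Sqle (1.34 to 9.60) and 3.35 times that of Nsdhl (1.26 to 8.87). These 5 intervals, on the log scale, lay above 1. Against Idi1, with 1 control count, it was 2.04 (0.218 to 19.1), which includes 1. For the Tfrc library over the control the ratio was 4.26 (1.64 to 11.1) for Insig1, 3.52 (1.48 to 8.37) for Fdft1, 2.92 for Cyp51 (1.11 to 7.69), 2.91 for Sqle (1.06 to 7.96), 2.62 (0.967 to 7.07) for Nsdhl and 0.909 (0.0995 to 8.31) for Idi1, the last 2 intervals including 1. Between the target libraries, where Erg28 had 98 and 60 Genome counts, the ratio was 2.01 (1.40 to 2.88) for Fdft1 and 1.96 (1.23 to 3.13) for Cyp51, while the intervals for Insig1 (1.49, 0.927 to 2.39), Nsdhl (1.28, 0.810 to 2.02), Sqle (1.23, 0.765 to 1.98) and Idi1 (2.25, 0.855 to 5.90) included 1.

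On Ensembl-ID counts in the Malat1 library over the control, the fold of Erg28 was 0.511 (0.384 to 0.680) of that of Cyp51, 0.697 (0.571 to 0.851) of that of Fdft1, 0.704 (0.561 to 0.883) of that of Sqle, 0.709 (0.574 to 0.874) of that of Hmgcs1 and 0.801 (0.624 to 1.03) of that of Insig1. It was 1.15 (0.830 to 1.59) times that of Nsdhl and 1.67 (1.26 to 2.22) times that of Idi1. Erg28 thus lay below Cyp51, Fdft1 and Sqle on Ensembl-ID counts and above them on Genome counts, and above Idi1 on Ensembl-ID counts.

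**Figure D2:**
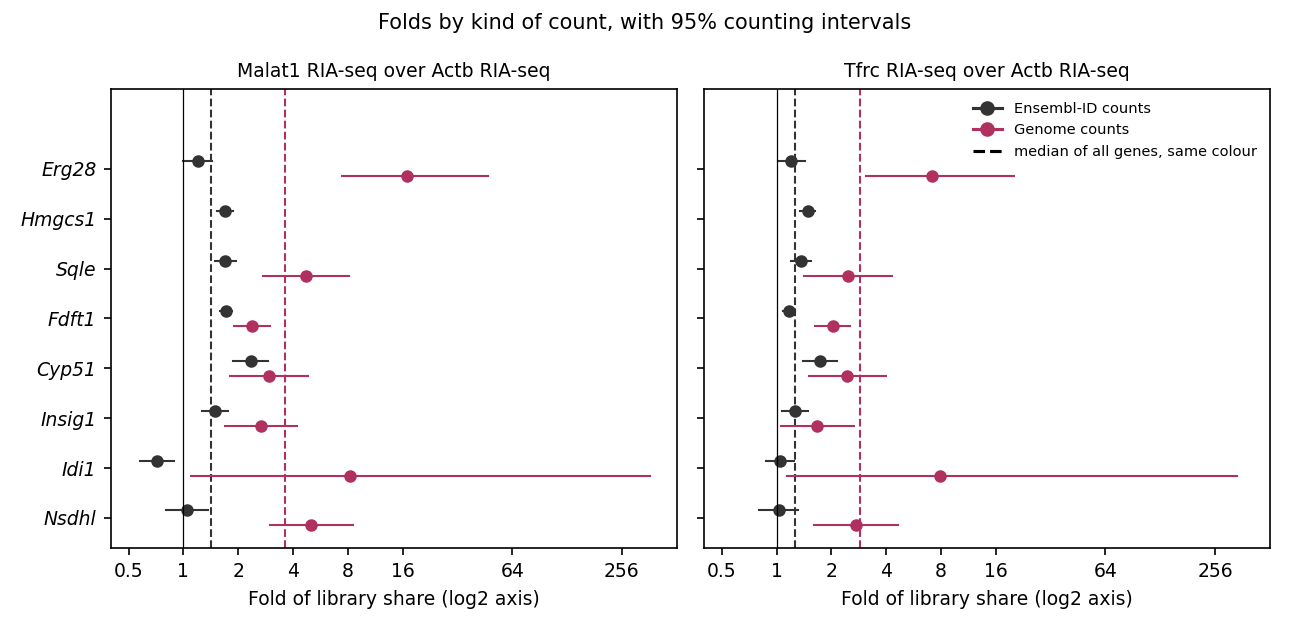
Fold of library share (log2 x axis) of each member in the Malat1 library (left) and the Tfrc library (right) over the control, black for Ensembl-ID and red for Genome counts, with lines for 95% counting intervals (exact where a count was under 10) and dashed lines for the median gene of each kind. The Genome fold of Erg28 was 16.9 and 7.15 and its Ensembl-ID fold 1.20 in both panels. Hmgcs1 has no Genome counts, and positions relative to 1 move with the scaling of the libraries.

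The Erg28 gene (ENSMUSG00000021252) spans positions 87156398 to 87165500 of chromosome 12 (build NCBIM37, minus strand) and has 5 merged exons and 4.868 kb of introns. No annotated gene overlaps it. The counting rule and strand use are not given, so whether its counts are shared with a nearby gene was not tested. Divided by annotated intron length, its Genome counts were 0.118 per 1000000 and kilobase in the control, 2.00 in the Malat1 library and 0.847 in the Tfrc library. This was the highest level of the 7 members with annotated introns in the Malat1 library, ahead of Insig1 at 1.44, while in the Tfrc library Insig1 was higher at 0.911. In the control Erg28 lay behind Insig1 at 0.543, Fdft1 at 0.349 and Sqle at 0.145. Intron length is used here as a common length only, since the sources do not say that Genome counts are intronic.

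The genes on either side of Erg28 were examined. Ttll5, on the opposite strand 122 bp away, had 137, 629 and 569 Genome counts, a fold of 4.74 in the Malat1 library and 2.97 in the Tfrc library over the control. Mfsd7c, 1862 bp away on the other side, had 24, 40 and 73, a fold of 1.72 and 2.17. Against the median gene on Genome counts, at 3.60 and 2.86, Ttll5 lay above and Mfsd7c below in both. Neither neighbour reached the fold of Erg28.

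**Figure D3:**
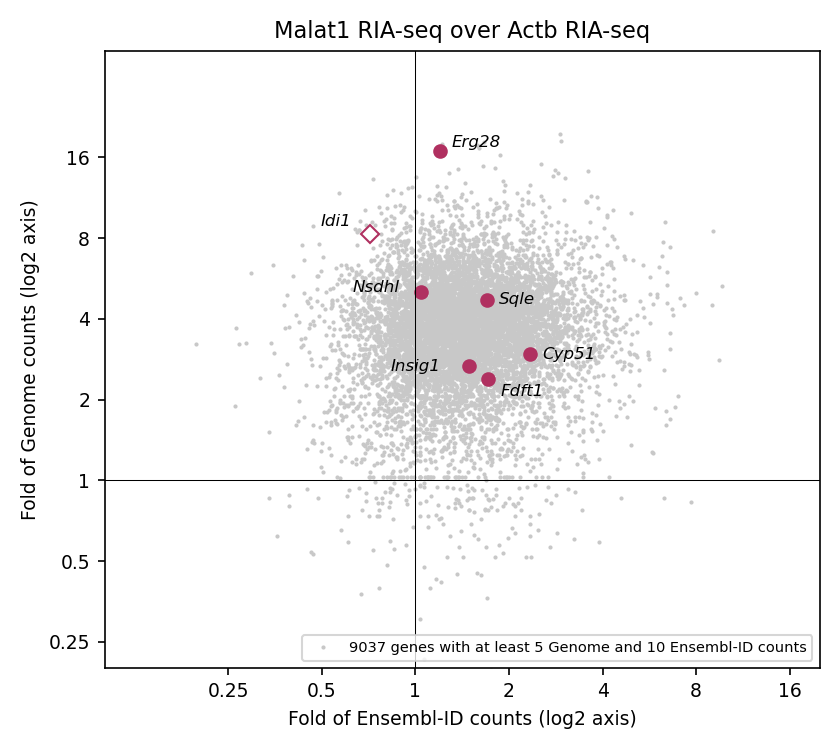
Fold of Ensembl-ID counts (log2 x axis) against fold of Genome counts (log2 y axis) in the Malat1 library over the control for the 9037 genes with at least 10 Ensembl-ID and 5 Genome counts in both libraries (grey), with 7 members in red, Idi1 among them as an open diamond because its control Genome count was 1. Erg28 sits near the top of the cloud at 16.9 on the Genome axis and 1.20 on the Ensembl-ID axis, and the other filled points lie between 2.39 and 5.04 on the Genome axis.

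The genes whose pattern was most like that of Erg28 were found by the distance over 4 log2 folds, of Ensembl-ID and Genome counts in both comparisons with the control, among 9065 protein-coding genes with at least 5 counts of each kind in each library. They were Alg8 (distance 0.432), Polr3e (0.437), Rpp14 (0.499), Fbxl20 (0.510) and Icam1 (0.526). Alg8 had 6, 73 and 62 Genome counts in the control, Malat1 and Tfrc libraries and Polr3e had 12, 206 and 114. None of the 5 is on the sterol list used here. The 4 folds share the control library, so the distance describes these 3 libraries only.

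Summed over both kinds, Erg28 had 215, 340 and 412 counts, or 20.7, 33.7 and 28.3 per 1000000. The fold was 1.63 (1.38 to 1.94) in the Malat1 library over the control, 1.37 (1.16 to 1.62) in the Tfrc library over the control and 1.19 (1.03 to 1.38) in the Malat1 library over the Tfrc library. These were 0.898, 0.879 and 1.03 of the median gene. The first was 0.671 (0.517 to 0.873) of the fold of Cyp51 and 2.17 (1.65 to 2.85) times that of Idi1, and its ratio to the fold of each of the other 5 members had an interval that includes 1. The fold in the Malat1 library over the control was 1.02 when the 10 genes with the most counts were left out of the library totals and 0.868 under size factors, so its direction rests on the scaling.

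Over all 8 members on summed counts, 1 of 8 (Cyp51) was at least 2-fold higher in the Malat1 library over the control, where 42.0% of 14549 genes were, and none was 2-fold lower, where 0.955% were. Under size factors, TMM, the 75th percentile and totals without the 10 most counted genes, 1 of 8 was at least 2-fold lower, Idi1 at 0.400 to 0.471. Each of these scalings moves the folds of all genes by one factor, so the 4.36% of genes below Idi1 pass there too. The full share of genes 2-fold lower under them was not counted. The member median was 1.66 against 1.82 for all genes, and 6 of 8 members were below the median gene. On Ensembl-ID counts alone the order was the other way, 1.59 against 1.41 with 3 of 8 below. On Genome counts the median of all 7 members with such a count was 4.71 against 3.60, with 3 of 7 below. That 3.60 covers only genes with at least 10 Genome counts in both libraries, a minimum that Erg28 and Idi1 miss. Of the 5 members that reach it, Fdft1 (2.39), Insig1 (2.66) and Cyp51 (2.95) lay below 3.60. Sqle (4.71) and Nsdhl (5.04) lay above, so the order on Genome counts turns with the minimum. In the Tfrc library over the control 0 of 8 were at least 2-fold higher, where 28.5% of 14665 genes were. None was 2-fold lower, where 0.389% were, and the member median was 1.34 against 1.56. In the Malat1 library over the Tfrc library 0 of 8 were at least 2-fold higher, where 4.29% of 16380 genes were, and none 2-fold lower, where 1.92% were, with a member median of 1.25 against 1.15. Both comparisons with the control share the control and are not independent of each other.

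Counted by direction, 7 of 8 members had a larger share in the Malat1 library and 8 of 8 in the Tfrc library than in the control on library totals, where 88.7% and 87.2% of all genes had, while under size factors 1 of 8 did in each. Between the target libraries 7 of 8 were higher in the Malat1 library on library totals, where 67.9% of genes were, and 7 of 8 under size factors too. Under size factors the median gene was at 0.967 and 0.937 in the Malat1 and Tfrc libraries over the control. It was at 1.02 between the target libraries. The share of all genes above 1 under size factors was not counted. On Ensembl-ID counts alone 1 of 8 members (Cyp51) was at least 2-fold higher in the Malat1 library over the control, where 24.0% of genes were, and 0 of 8 in the Tfrc library, where 14.1% were. On Genome counts 5 of 5 members with at least 10 in both libraries were at least 2-fold higher in the Malat1 library over the control, where 88.6% of genes were, and 4 of 5 in the Tfrc library, where 79.6% were. Between the target libraries 1 of 6, Erg28, was at least 2-fold higher in the Malat1 library, where 9.84% of genes were. In the comparisons with the control Erg28 is not among these 5, because of its 6 control counts.

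The members were set within 42 genes of sterol synthesis, its control, uptake and export, of which 41 had at least 10 counts in both libraries of each comparison. In the Malat1 library over the control, 16 of 41 were at least 2-fold higher and 0 lower, near the 42.0% of all genes, and the median was 1.78. For the Tfrc library it was 5 of 41, against 28.5%, and the median was 1.48. Nr1h3, an oxysterol receptor gene, had 0, 3 and 12 counts and was left out of the folds. Its 0 in the control allows a share of up to 0.288 per 1000000.

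Along the route itself, from acetyl-CoA to cholesterol, 6 of 23 genes were at least 2-fold higher in the Malat1 library over the control and 0 of 23 in the Tfrc library over the control, against 42.0% and 28.5% of all genes. The stage medians in the Malat1 library are read against 1.82 for all genes. The 6 genes from acetyl-CoA to mevalonate, Hmgcs1 among them, had a median of 1.38. For the 3 genes of squalene and lanosterol, which include Fdft1 and Sqle, it was 1.78. The 3 genes of isoprenoid units had a median of 0.821 in the Malat1 library, with Idi1 at 0.753, Fdps at 0.821 and Ggps1 at 2.87. The 11 genes from lanosterol to cholesterol, which include Cyp51, Nsdhl and Erg28, had a median of 1.88. For the 7 genes of SREBP control, Insig1 among them, it was 1.90, for the 7 genes of uptake and transport 2.08, and for 4 genes of export and esterification 2.81.

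Among the 33 genes of the list that are not members, the highest in the Malat1 library over the control were Mylip, a ligase gene that promotes loss of the LDL receptor, at 3.61 (1.90 to 6.86, with 12 control counts) and Ebp, a sterol isomerase gene, at 3.48 (2.57 to 4.71). The lowest were Fdps, the farnesyl diphosphate synthase gene, at 0.821 (0.663 to 1.02) and Pmvk, the phosphomevalonate kinase gene, at 0.864 (0.719 to 1.04). Idi1 lay below all 33. In the Tfrc library over the control the highest were Abca1, a sterol exporter gene, at 2.36 (2.00 to 2.77) and Mylip at 2.20 (1.15 to 4.23), and the lowest were Pmvk at 0.749 (0.630 to 0.891) and Fdps at 0.869 (0.717 to 1.05). In the Malat1 library over the Tfrc library Ebp was at 2.01 (1.60 to 2.51) and Sc4mol, a sterol methyl oxidase gene of the complex that ERG28 tethers, at 1.89 (1.72 to 2.07), against Insig2 at 0.814 (0.672 to 0.987) and Nr1h2 at 0.846 (0.709 to 1.01). All these folds are on library totals and are read against the medians of all genes.

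**Figure D4:**
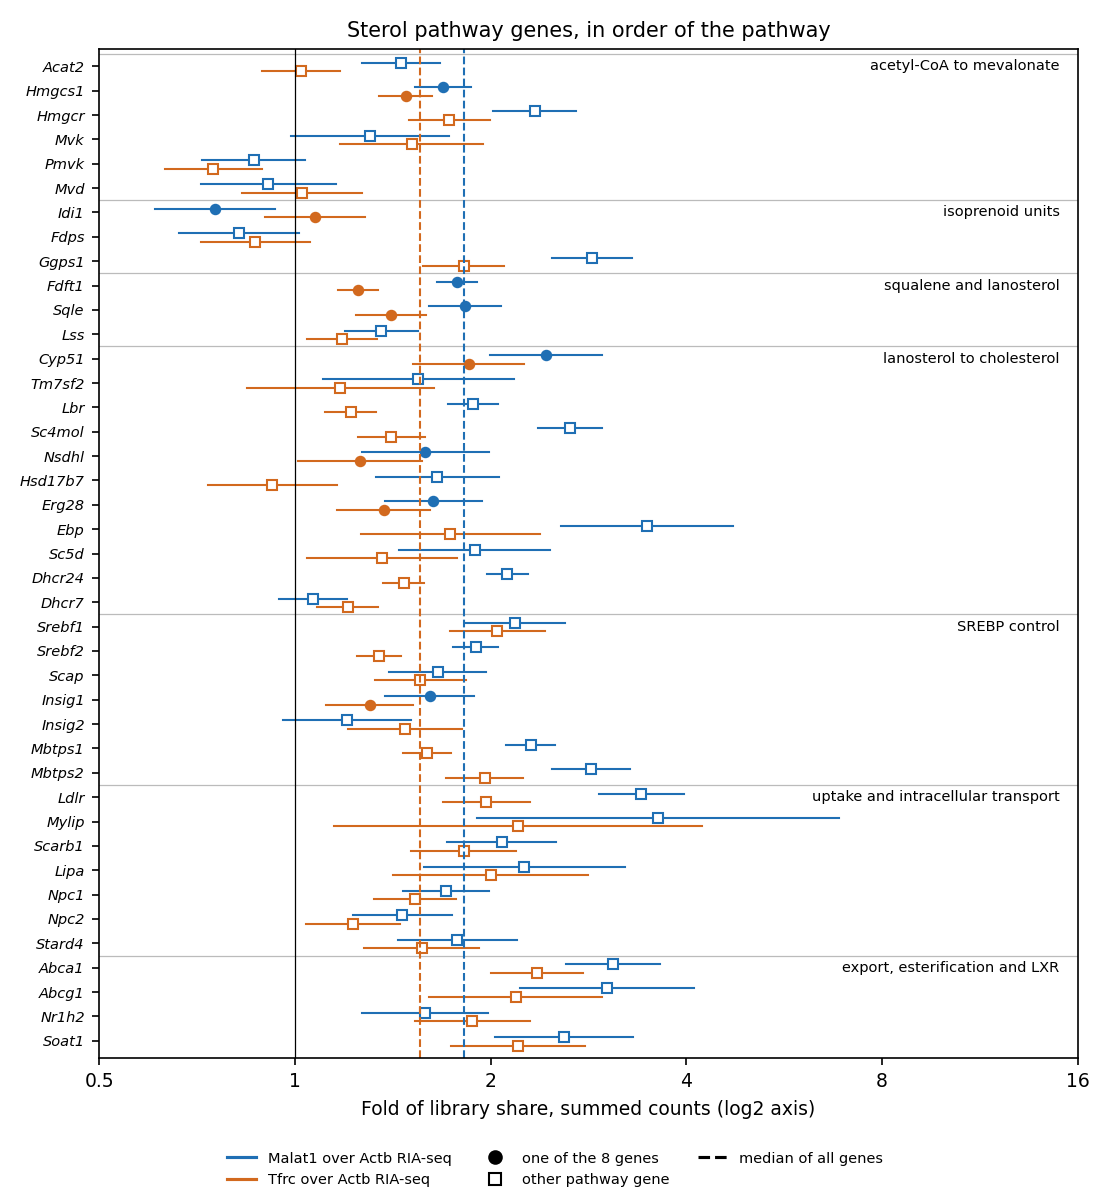
Fold of library share on summed counts (log2 x axis) for the 41 sterol genes that reached 10 counts in each library, in pathway order from the top, blue for the Malat1 and orange for the Tfrc library over the control; lines are 95% counting intervals, filled circles the 8 members and dashed lines the medians of all genes, 1.82 and 1.56. Members and other genes lie on both sides of the dashed lines, Idi1 at 0.753 is the lowest blue point and Mylip at 3.61 the highest, and the position of 1 depends on the scaling of the libraries.

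Longer transcripts tended to have higher Ensembl-ID folds in both comparisons with the control. In the Malat1 library over the control, Spearman's rho was 0.456 (Pearson's r 0.430 with the log2 fold) across 39 genes of the sterol list with a transcript length. Across all 11719 genes with a length rho was 0.240 (r 0.196). In the Tfrc library over the control rho was 0.354 (r 0.402) across the 39 genes and 0.259 (r 0.172) across 11862 genes. These are descriptions across genes of the same 3 libraries with a shared control, and genes are not independent replicates. The longest coding transcript of Erg28 has 1169 bases, short beside the list's median of 2866 bases, but its merged exons come to 4235 bp. Whether length bears on its fold was not tested.

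The sequence of each member was compared with Malat1, the RNA that was drawn out. The longest stretch of perfect base complementarity between the longest coding transcript and the Malat1 gene was sought in 22611 genes, with a median of 12 bases. It was 13 bases in Erg28, and 41.8% of genes had as long a stretch. It was 16 in Insig1 (5.49% of genes), 14 in Idi1 (19.5%), 13 in Fdft1 and Cyp51, 12 in Sqle and 11 in Nsdhl (94.1%). Hmgcs1 had no transcript in the annotation and was not searched. Against the other target RNAs the longest stretch of Erg28 was shorter, 11 bases with Tfrc and 10 with Actb, which 88.3% and 94.1% of genes matched or passed. The stretches of Erg28, Insig1 and Idi1 complementary to Malat1 all lie in the 3′ UTR. They are shown as the longest of the members and that of Erg28 itself, 5′ to 3′ on the transcript strand. The complementary bases are in capitals, and each is followed by its Malat1 partner on chromosome 19 (NCBIM37, minus strand).
Erg28 chr12:87156692-87156721 minus: cttttccaGTCTTTTGCTTTTctctgcatt
Malat1 chr19:5795970-5795999 minus: aaaaaaaaAAAAGCAAAAGACgctggtggc
Insig1 chr5:28404680-28404709 plus: tagggggTTGCTTTTTTTTTTTTttttttt
Malat1 chr19:5795977-5796006 minus: tagctttAAAAAAAAAAAAGCAAaagacgc
Idi1 chr13:8891081-8891110 plus: cgtgtttcTTTCTCTGTGTAGCtctggcta
Malat1 chr19:5801982-5802011 minus: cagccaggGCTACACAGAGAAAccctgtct

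The Malat1 windows facing Erg28 and Insig1 overlap and hold one A-rich tract, and both member windows are rich in T. Insig1, with the longest stretch complementary to Malat1, had a summed fold of 1.61 in the Malat1 library over the control. Idi1, with the next, had the lowest fold of the members at 0.753. The order of the members by the length of this complementary stretch was thus not their order by fold. A match of this kind is a description of letters and says nothing of whether the RNAs meet in the cell.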

How the data were processed

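RNA recovered by RIA-seq was analysed in 3 libraries of mouse E14 ES cells, with 1 library per condition, taken from the labels. The authors deposited raw read counts per gene for each library, as whole numbers without normalization, under an Ensembl identifier or under the reference name Genome. The submitters' processing notes name Bowtie 0.12.7 and the builds mm9 and NCBIM37. The counting rule, strand use and handling of reads with several matches are not given in the sources used here, so reads of near-identical copies may have been split or dropped. There were 0 unused columns of samples.

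The counts of each gene symbol were summed and divided by the library total, and folds were ratios of these shares with a pseudocount of 0. Fold intervals (95%) were computed on the log scale, or exactly from the binomial distribution for counts under 10, and share intervals were Wilson intervals. Medians and shares of genes called were taken over genes that reached 10 counts in each library compared. Positions came from the GENCODE annotation of NCBIM37 (98.6% of 24080 Ensembl identifiers and 7 of 8 members found). Copies were sought with blastn (at least 80% identity over 500 bp). The fold computation was tested on simulated Poisson counts of well counted genes, which does not cover PCR error or folds that rest on few counts. Computations used R 4.3.3 with edgeR 4.0.16 (TMM scaling only), BLAST+ 2.17.0 and Python 3.11.15 with pandas 2.3.3, scipy 1.17.1, numpy 2.4.6 and matplotlib 3.10.9.

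The members, the sterol list and the tests were chosen with earlier results of these data known. The genes named were all 8 members, the 2 highest and 2 lowest other genes of the sterol list in each comparison, the 5 genes most like Erg28 and its 2 neighbours. Ggps1 was named after its value was seen, to complete a group of 3. Alternatives were size factors, TMM, the 75th percentile, totals without the 3 targeted or the 10 most counted genes, a pseudocount of 1, each kind of count alone on either total, a 1.5-fold call, minimums of above 0 and of 50 counts and, added after seeing the data, Hmgcs1 on 1 contig and Idi1 with its copies.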

Additional observations from a re-analysis of the deposited data

How the results depend on the processing

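No paired analysis was possible because each condition had 1 library, and no library could be left out for the same reason. The members at least 2-fold higher in the Malat1 library over the control were 1 on summed counts. They became 0 under size factors, TMM, the 75th percentile and totals without the 10 most counted genes. On Ensembl-ID counts scaled to their own total they became 2, where the median gene was at 1.66. On Genome counts scaled to the library total they became 7 of 7, where 88.6% of genes with at least 10 in both libraries were called. On Genome counts scaled to their own total they were 2, Erg28 and Idi1, where the median gene with at least 10 in both libraries was at 0.995. At a 1.5-fold call they became 7, and the median gene at 1.82 passed it too. In the Tfrc library over the control the 0 became 6 on Genome counts on the library total, where 79.6% of genes were called. It became 2, Erg28 and Idi1, on their own total, where the median gene was at 0.995, and 1 at 1.5-fold, which the median gene at 1.56 passed. All these Genome calls take in Erg28 and Idi1, whose control Genome counts were under 10. In the Malat1 library over the Tfrc library the 0 became 1 on Genome counts on the library total, where 9.84% of genes were called. Shares of all genes at 1.5-fold, on own totals and under the other scalings were not counted. The fold of Erg28 in the Malat1 library over the control, 1.63, was 0.868 under size factors, 0.887 under TMM, 0.900 under the 75th percentile and 1.02 without the 10 most counted genes. It was 1.20 on Ensembl-ID counts, 16.9 on Genome counts and 4.65 on Genome counts scaled to their own total. In the Tfrc library over the control its 1.37 was, in the same order of scalings, 0.824, 0.849, 0.857 and 0.976, and on Genome counts 7.15, or 2.49 on their own total. In the Malat1 library over the Tfrc library its 1.19 was 0.993 on Ensembl-ID counts, 2.36 on Genome counts and 1.87 on their own total. On Genome counts scaled to their own total, the folds of Cyp51, Fdft1 and Insig1 in the Malat1 library over the control turned below 1, to 0.814, 0.660 and 0.734. On summed counts Idi1 in that comparison became at least 2-fold lower, as did the 4.36% of genes with lower folds. It was at 0.400, 0.409, 0.415 and 0.471 under size factors, TMM, the 75th percentile and totals without the 10 most counted genes. The scalings divide by the typical gene and the library total by all counts, and which is closer to the RNA in the cells was not tested. Over all alternatives 14 folds of Erg28 moved by less than their counting interval and 16 by more, as did 105 and 104 folds of the other members. Over all genes, those at least 2-fold higher numbered 6111, 4178 and 702 in the 3 comparisons, 9461, 7547 and 1990 with any count above 0, and 3769, 2111 and 281 with at least 50 counts. The depth limits Erg28 and Idi1 most, with 6 and 1 Genome counts in the control.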
